A study of Homo sapiens with 6 samples.

Results

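The complement system was followed here through 9 genes in THP-1, a human monocytic leukaemia line. They are the anaphylatoxin receptors C5AR1, C5AR2 and C3AR1, the components C3, CFD and CFP, and the membrane regulators CD46, CD55 and CD59. The genes were chosen by symbol, with earlier results of these libraries known, and each symbol was found on 1 row of the 58395 gene rows. All 9 passed the filter on low counts, which left 16542 genes tested. Of the 6 RNA libraries, 3 came from cells with no exposure and 3 from cells given 1 µM monensin for 16 h, an ionophore that exchanges sodium ions for protons across membranes. All cells were grown in RPMI medium with fetal bovine serum, the label of the unexposed cells names no vehicle, and nothing says that replicates were separate cultures. The p-values therefore rest on a spread between samples that may be only technical. An effect of any vehicle and one of monensin cannot be told apart.

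Complement is a cascade of plasma proteins that marks and lyses microbes and calls in phagocytes. Its alternative pathway starts from C3, which pairs with factor B. Factor D (CFD) then cuts factor B, and properdin (CFP) stabilises the active complex. Cleavage of C3 and C5 releases the small peptides C3a and C5a. These act on G protein-coupled receptors of myeloid cells, where C5AR1 drives chemotaxis and activation and C5AR2 does not couple to G proteins. Host cells protect themselves with CD46, a cofactor for cleavage of C3b and C4b, with CD55, which dissociates the C3 convertases, and with CD59, which blocks the membrane attack complex.

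The upstream sequences of the 3 receptor genes are shown because C5AR1 and C5AR2 lie in tandem and both rose, while C3AR1, on another chromosome, did not pass the test. Each is taken from RefSeq on GRCh38.p14, runs 5′ to 3′ on the gene's strand, and ends before the first annotated exon there. That is right at the RefSeq start for C5AR1, but 28 bases short of it for C5AR2 and 112 bases short for C3AR1. Distances given after the sequences are counted from the RefSeq start, not from the end of the printed run. Capitals mark matches to the motifs described after them.
C5AR1, chr19:47309611-47309860, + strand: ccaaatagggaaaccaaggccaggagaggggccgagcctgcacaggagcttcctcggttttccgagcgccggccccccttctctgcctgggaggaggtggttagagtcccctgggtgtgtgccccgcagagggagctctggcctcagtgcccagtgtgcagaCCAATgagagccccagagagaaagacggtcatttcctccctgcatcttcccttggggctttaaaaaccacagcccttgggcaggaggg
C5AR2, chr19:47331925-47332146, + strand: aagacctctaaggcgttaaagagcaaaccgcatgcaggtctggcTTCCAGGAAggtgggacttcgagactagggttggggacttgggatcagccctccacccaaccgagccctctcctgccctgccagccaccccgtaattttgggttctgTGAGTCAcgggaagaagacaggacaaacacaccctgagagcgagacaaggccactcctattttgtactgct
C3AR1, chr12:8066472-8066609, − strand: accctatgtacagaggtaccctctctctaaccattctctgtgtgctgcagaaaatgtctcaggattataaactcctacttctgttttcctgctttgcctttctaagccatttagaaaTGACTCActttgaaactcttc

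In the C5AR1 sequence the only match was a CCAAT box (CCAAT) that begins 88 bases before the RefSeq start. The first C5AR2 window held an AP-1 motif (TGANTCA) that begins 99 bases before the start and an interferon gamma activated site (TTCNNNGAA) that begins 206 bases before it. C3AR1 held an AP-1 motif that begins 133 bases before its RefSeq start. Both strands were searched in the 250 bases before each of 35116 RefSeq starts. CCAAT was found in 32.0% of those windows, TGANTCA in 6.57% and TTCNNNGAA in 6.57%. The E-box CACGTG (6.34% of windows), the amino acid response element core TGATGNAA (3.14%), the cyclic AMP element TGACGTCA (1.65%) and the NF-kB motif GGANTTTCC (1.45%) were not found in any of the 14 windows of the 8 complement genes with a promoter entry. The NF-kB motif had been narrowed after a looser form matched the CD55 window, so its absence depends on that choice. The PU.1 motif GAGGAAGT (2.17%) was found at the second start of C5AR2. These are matches of letters and not measured binding sites.

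The 6 libraries were of similar depth, with gene counts from 22975888 to 25710513. Correlations of log2 CPM (a gene's reads scaled to library size, itself adjusted by the TMM method) between libraries of the same group were at least 0.9968, and none of the libraries stood apart from its group. Myeloid transcripts were present in both groups. The 12 markers on a monocyte and myeloid list, all tested, summed to 4320 to 4620 CPM in untreated and 4590 to 5160 CPM in monensin libraries. Most of that sum came from AZU1 (means of 1393 and 1875 CPM), ELANE (844 and 846) and CTSG (752 and 794). Of the 12 markers 6 rose and 3 fell, where 34.1% of all tested genes rose and 33.7% fell. Single markers moved more than the sum: LYZ, lysozyme, went from 791 ± 14.3 to 292 ± 24.2 CPM and FCER1G, an Fc receptor chain, from 142 ± 5.11 to 434 ± 22.0 CPM (SD, n = 3). CD14 was close to the limit of detection in untreated cells, with 10, 12 and 13 reads. With monensin it had 69, 53 and 54 reads (log2 fold change 2.3, SE 0.228). Its untreated libraries alone would not have passed the filter, so CD14 was tested through its monensin counts. The markers given by name were chosen after their values were seen. Their part in the results on complement genes was not tested. Markers of other cells were at or near 0, with at most 0.195 CPM over 4 T cell genes, at most 2.66 CPM over 3 B cell genes and no count for any of 4 epithelial genes. Over 6 hepatocyte genes, the marker list of the main complement-producing cell, the sum ran from 0.514 to 1.04 CPM, and TTR, AHSG, FGB and APOH had no count.

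Of the 9 complement genes, 6 rose and 2 fell at an adjusted p under 0.05 in the fit across all genes (edgeR's quasi-likelihood test), and C3AR1 was not called. That threshold was passed upward by 34.1% and downward by 33.7% of all tested genes. The groups did not overlap for 8 of the 9, and for 71.1% of all tested genes. Because the genes were picked with these results in view, the counts and the fold changes below describe them and are no test. The median log2 fold change was 0.67, beside 0.019 over all tested genes. In bulk RNA, fewer cells that carry a transcript and less of it per cell cannot be told apart.

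**Figure D1:**
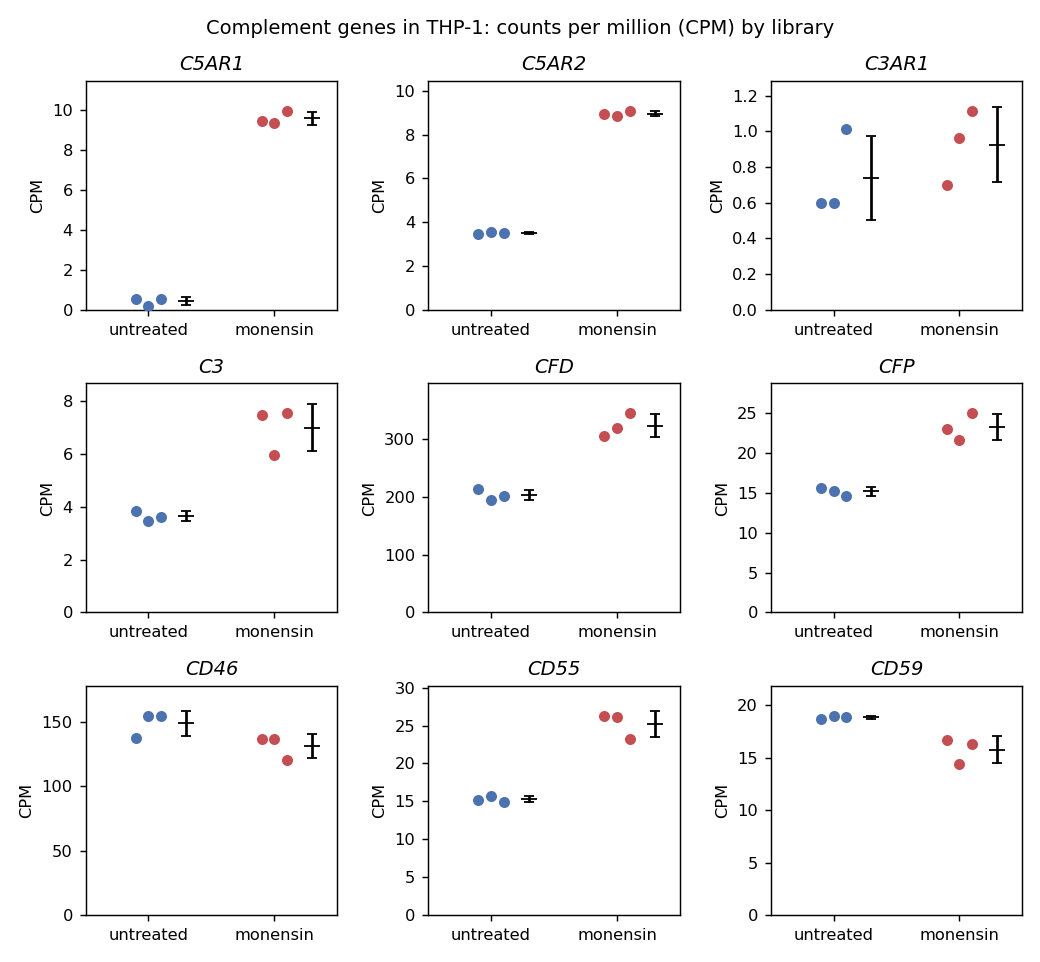
Transcript levels of the 9 complement genes, in CPM on a linear axis from 0, for each of the 3 untreated (blue) and 3 monensin (red) libraries; black marks give mean ± SD. C5AR1 went from between 0.214 and 0.561 CPM to between 9.32 and 9.94 CPM, while the C3AR1 points of both groups overlap.

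C5AR1, the activating receptor for C5a, went from close to the limit of detection to a moderate level. It had 14, 5 and 13 reads without exposure, against 242, 233 and 232 with monensin. In CPM this was 0.561, 0.214 and 0.526 without exposure, and 9.43, 9.32 and 9.94 with monensin. Every monensin library lay far above every untreated one, and the second untreated library was the lowest. The log2 fold change was 4.43 (SE 0.187), a 21.6-fold difference whose 95% interval on the log2 scale ran from 4.03 to 4.83. With only 5 to 14 untreated reads per library, the untreated level and therefore the fold are less precise than the monensin level. The untreated libraries alone would not have passed the filter, so C5AR1 was tested through its monensin counts.

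C5AR2, the second C5a receptor, was already detected in untreated cells, with 86, 83 and 87 reads. Its level was 3.45, 3.56 and 3.52 CPM without exposure and 8.96, 8.84 and 9.08 CPM with monensin. The values within each group were tightly spaced and the groups were far apart. The log2 fold change was 1.35 (SE 0.099), or 2.55-fold. At least 2-fold rises at the same threshold were seen for 9.41% of tested genes, and of the 9 complement genes only C5AR1 and C5AR2 were among them.

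C3AR1, the C3a receptor, stayed at about 1 CPM. Its levels were 0.601, 0.600 and 1.01 CPM in untreated libraries and 0.701, 0.960 and 1.11 CPM in monensin libraries. The groups overlapped, since the third untreated library lay above the 2 lower monensin ones. The log2 fold change was 0.31 (SE 0.287), with an interval from -0.30 to 0.93 that includes both no difference and a near doubling on this scale. Between 14 and 26 reads per library carried this estimate, so a smaller difference was not detectable at this depth.

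Between C5AR1 and C5AR2 the balance of transcripts shifted toward C5AR1. Scaled to exonic length, the C5AR1 to C5AR2 ratio was 0.375, 0.139 and 0.344 without exposure, against 2.43, 2.43 and 2.52 with monensin. On raw counts, not scaled to length, it was 0.163, 0.0602 and 0.149 without exposure and 1.05, 1.05 and 1.09 with monensin. C5AR2 was thus the higher of the pair in all 3 untreated libraries on both scales. With monensin their read counts were nearly equal, and the excess of C5AR1 per kb rests on the exonic lengths used, 2.951 kb for C5AR1 and 6.802 kb for C5AR2. The mean length-scaled ratio went from 0.286 ± 0.129 to 2.46 ± 0.0548 (SD, n = 3). No test was made of it, because 3 libraries against 3 cannot go below an exact two-sided permutation p of 0.1.

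**Figure D2:**
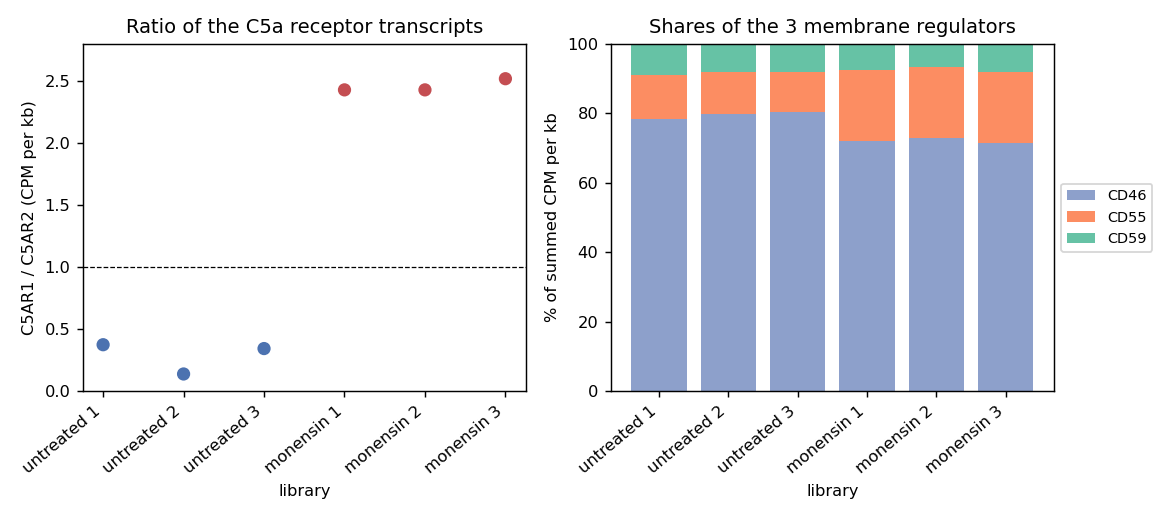
Left, the C5AR1 to C5AR2 ratio of CPM per kb of exonic length in each library, with a dashed line at 1; the untreated libraries lie at 0.375 or below and the monensin libraries at 2.43 or above. Right, the percentage of the summed CPM per kb of CD46, CD55 and CD59 that each holds in each library; CD55 holds 11.4% to 12.7% in untreated and 20.3% to 20.5% in monensin libraries.

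Both C5a receptor genes lie on the + strand of chromosome 19 (GRCh38, GENCODE 29), C5AR1 from 47290023 to 47322066 and C5AR2 from 47332147 to 47347327, 10.1 kb apart. The annotated C5AR1 gene begins upstream of the RefSeq start whose sequence is printed above, so that window lies within the gene span but outside its exons. The nearest tested gene before C5AR1 is INAFM1, at 6.73 CPM in untreated and 9.05 CPM in monensin libraries (log2 fold change 0.42, SE 0.103, edgeR adjusted p = 0.00184). The nearest after C5AR2 is DHX34, an RNA helicase gene 1.95 kb downstream, at 41.3 and 39.5 CPM (log2 fold change -0.06, SE 0.052, edgeR adjusted p = 0.300). C3AR1 is a separate locus on chromosome 12 from 8058302 to 8066471.

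The authors' deposited table of 2410 regulated genes, all with an absolute log2 fold change of at least 1, holds C5AR1 at 4.43 and C5AR2 at 1.33 and none of the other 7 of the 9. It holds 12.5% of the genes tested here. By Pearson correlation of log2 CPM over the 6 libraries, LYRM1, SEC31B, FLYWCH1 and GOT1 were the genes most like C5AR1 among the 11563 genes whose average log2 CPM reached 2. Their log2 fold changes were 0.67, 1.36, 0.90 and 1.24. Of the 11563 genes, 311 correlated with C5AR1 above 0.99, so the named genes do not stand apart. The 6 libraries fall into 2 groups, so this likeness says little beyond a separation of the groups.

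The 3 components of the alternative pathway rose together, each by less than 2-fold. C3, the central protein of the cascade, had 3.85, 3.47 and 3.60 CPM in untreated and 7.48, 5.96 and 7.54 CPM in monensin libraries. Each monensin value was above each untreated one, with the second monensin library lowest of its group. The log2 fold change was 0.94 (SE 0.123), or 1.92-fold.

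CFD encodes factor D, the serine protease that cleaves factor B, and had the highest level of the 9 genes. It went from 213, 195 and 200 CPM to 304, 318 and 344 CPM. The log2 fold change was 0.67 (SE 0.050), or 1.59-fold. With 4539 to 8023 reads per library, counting error is small beside the spread between libraries. Once trends with GC content and length were removed, the log2 fold change of CFD was 0.395, still a rise.

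CFP, the gene of properdin, which stabilises the alternative pathway convertase, went from 15.6, 15.3 and 14.6 CPM to 23.0, 21.7 and 25.0 CPM. The groups were well separated, and the log2 fold change was 0.61 (SE 0.070), or 1.53-fold. CFB, which supplies the factor B that completes this convertase, is not among the 9 and was too low to be tested. It had 0 reads in each untreated library and 12, 5 and 15 in the monensin libraries. Set against a floor of 3 counts over the untreated group, its 32 reads with monensin came to a 10.5-fold difference. The floor makes no allowance for counting error or spread of the monensin reads. CFB stands at 5.83 on the log2 scale in the authors' deposited table. The gene AL645922.1, on the same strand, overlaps 6399 bases of CFB, so the CFB count is uncertain.

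The membrane regulators did not move as a group. CD55 encodes decay accelerating factor, a protein held by a glycosylphosphatidylinositol (GPI) anchor. It rose from 15.2, 15.7 and 14.9 CPM to 26.3, 26.1 and 23.2 CPM, with a log2 fold change of 0.72 (SE 0.069), or 1.65-fold. No library of either group came near the other group.

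CD59, also GPI-anchored, fell from 18.7, 19.0 and 18.8 CPM to 16.7, 14.4 and 16.3 CPM, with a log2 fold change of -0.26 (SE 0.071). The untreated values were closely spaced, and the highest monensin value lay below all of them. The call was lost when trends with GC content and length were removed, where the log2 fold change was -0.07.

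CD46, a transmembrane cofactor for factor I, had 138, 155 and 155 CPM in untreated libraries and 137, 137 and 121 CPM in monensin libraries. The first untreated library nearly met the upper monensin libraries, and the third monensin library was the lowest. Its log2 fold change was -0.18 (SE 0.058), a fall called in the main fit that was -0.09 and not called under total counts, and became 0.11 after removal of trends with GC content and length. A direction for CD46 is therefore not settled by these libraries.

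Among the summed length-scaled levels of the 3 regulators, CD46 held 79.5% ± 1.07 in untreated and 72.3% ± 0.736 in monensin libraries (SD, n = 3). CD55 held 12.0% ± 0.685 and 20.4% ± 0.105, and CD59 8.46% ± 0.409 and 7.32% ± 0.841. The CD55 to CD59 ratio was 1.43, 1.45 and 1.38 without exposure and 2.76, 3.18 and 2.50 with monensin. On raw counts it was 0.814, 0.828 and 0.790, and 1.57, 1.82 and 1.43. Which of the pair is higher in untreated cells therefore depends on the length scaling, while the ratio was higher with monensin on both scales. The CD55 share of every monensin library lay above that of every untreated library, and the shares of CD59 came close, at 8.22% for the lowest untreated and 8.12% for the highest monensin library.

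On 1 scale, CPM per kb of exonic length, the order of levels in untreated cells was CFD (166), CD46 (17.1), CFP (2.70), CD55 (2.59), CD59 (1.82), C5AR2 (0.516), C3 (0.437), C3AR1 (0.344) and C5AR1 (0.147). CFP and CD55 overlapped in range, as did C3 and C3AR1, while the other neighbours in this order did not. With monensin, CFD (264) and CD46 (15.1) kept the first places, and CD55 (4.26) and CFP (4.13) overlapped behind them. C5AR1 (3.24) moved from the last place to the fifth, above CD59 (1.52), C5AR2 (1.32), C3 (0.840) and C3AR1 (0.431). Lengths are unions of all annotated exons, from 1.222 kb for CFD to 10.358 kb for CD59, so genes with long rarely used exons are placed lower than their main transcript would be.

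**Figure D3:**
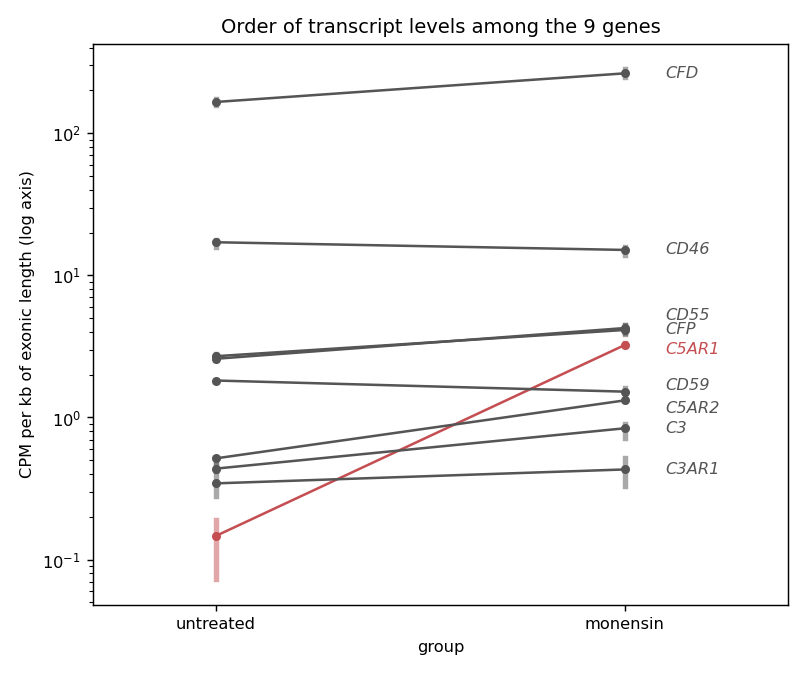
Mean CPM per kb of exonic length of the 9 genes in untreated and monensin cells on a log axis; pale bars span the lowest to the highest of 3 libraries. The C5AR1 line, in red, crosses 4 others, from 0.147 to 3.24 CPM per kb.

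None of the 9 genes overlaps an annotated gene on the opposite strand. CD59 shares 629 exonic bases with the readthrough gene AL049629.2 and CFP shares 338 with AL009172.2, both on the same strand and both at 0 reads in all 6 libraries. The sources used here do not say how reads in such shared exons were assigned.

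Of 51 other complement genes on 4 lists, 14 were tested, of which 7 rose and 3 fell. Their median log2 fold change was 0.41, beside 0.019 over all genes. Shares called in each direction over all tested genes are the 34.1% and 33.7% given above. The remaining 37 were too low, 17 of them with no read in any library. Those that passed the filter through their monensin counts alone had to differ, so these counts lend no support to a direction.

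In the classical and lectin pathway, 4 of 17 genes were tested. C2, a component of the classical C3 convertase, rose from 4.05, 3.90 and 4.41 CPM to 14.5, 13.6 and 15.3 CPM (log2 fold change 1.81, SE 0.092, edgeR adjusted p = 1.35e-10). C1R, a protease of the C1 complex named after its values were seen, rose by 1.64 on the log2 scale (SE 0.312, edgeR adjusted p = 0.000222) on 6 to 33 reads per library. Its untreated libraries, with 9, 9 and 6 reads, would not have passed the filter alone. C1R was thus tested through its monensin counts, and its p-value lends no support to a rise. C1S, its partner protease, had a log2 fold change of -0.08 (SE 0.211, edgeR adjusted p = 0.749). EMG1 on the same strand overlaps C1S over 9170 bases and LPCAT3 on the opposite strand over 30252 bases, so the C1S count is uncertain. C1RL rose by 0.18 (SE 0.069, edgeR adjusted p = 0.0314), a call that DESeq2 (adjusted p = 0.101) and several other settings did not keep. C1QA, C1QB and C1QC, the chains of C1q, had at most 7 reads in any library. C2 overlaps the same-strand gene AL645922.1 over 17975 bases, CFB over 23 bases and also the antisense gene C2-AS1, and C1R overlaps C1RL, so their counts are uncertain where reads could be split.

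Of C5 and the terminal pathway, C5 and C8G were tested. C5, the source of the C5a ligand, went from 36.8, 38.1 and 38.7 CPM to 31.7, 29.2 and 31.6 CPM (log2 fold change -0.30, SE 0.056, edgeR adjusted p = 0.000243). After removal of trends with GC content and length it was -0.045 and not called. C6, C8A and C8B had no read in any library, and C7 and C9 at most 1 in any.

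Among soluble regulators, 2 of 15 were tested and both rose. SERPING1, the C1 inhibitor, rose by 0.87 on the log2 scale (SE 0.190, edgeR adjusted p = 0.000751). CLU, clusterin, which binds terminal complexes, rose by 0.83 (SE 0.170, edgeR adjusted p = 0.000481). CFI, a protease that cleaves C3b, had no read in any library.

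Other receptors and surface proteins divided. ITGAX, the alpha chain of complement receptor 4, rose from 37.0, 32.3 and 41.6 CPM to 116, 112 and 125 CPM (log2 fold change 1.67, SE 0.073, edgeR adjusted p = 2.12e-11). Its beta chain ITGB2 rose by 0.63 (SE 0.035, edgeR adjusted p = 3.66e-10), with an antisense gene, ITGB2-AS1, across part of it. ITGAM, the alpha chain of complement receptor 3, had a log2 fold change of -0.03 (SE 0.063, edgeR adjusted p = 0.665) and an interval from -0.17 to 0.10. CD93, a receptor once described as binding C1q, fell by 0.49 on the log2 scale (SE 0.050, edgeR adjusted p = 3.63e-07), and C1QBP, a mitochondrial C1q-binding protein, fell by 0.69 (SE 0.045, edgeR adjusted p = 1.97e-09). The C1QBP gene overlaps the same-strand gene DHX33 over 7919 bases, so its count is uncertain where reads could be split.

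CD55 and CD46 stand 365 kb apart on chromosome 1 in the cluster of regulators of complement activation, from 207321376 to 207386804 and from 207752057 to 207795513 (GRCh38). Between them lie CR2, CR1 and CR1L, of which CR1 alone was detected above trace, with 83 reads over the untreated and 98 over the monensin libraries (log2 fold change 0.22, SE 0.243, edgeR adjusted p = 0.444). The gene AL137789.1, on the opposite strand, overlaps 54631 bases of CR1, so the CR1 count is uncertain. CR2 and CR1L had 1 read each over all 6 libraries. CD55 had 1115 and 1869 reads over the same groups and CD46 had 10882 and 9763, so neighbours in the cluster had unlike levels.

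**Figure D4:**
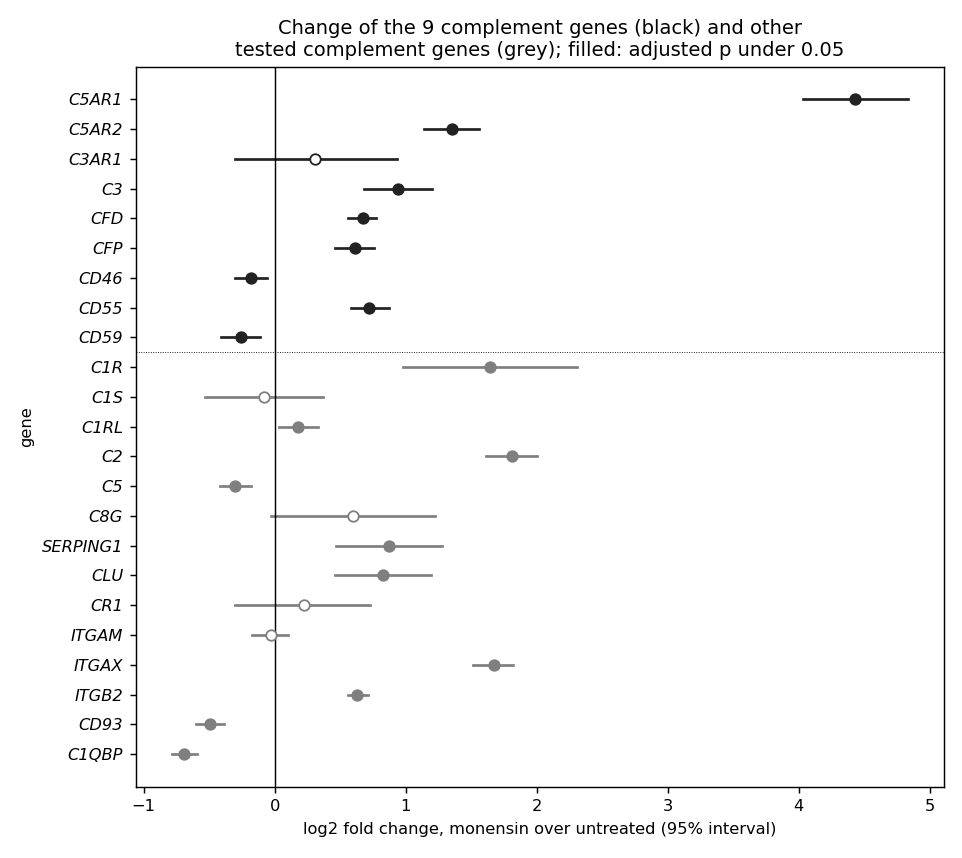
Log2 fold change, monensin over untreated, with its 95% interval, for the 9 complement genes (black) and the other 14 tested complement genes (grey); filled points passed an adjusted p under 0.05. C5AR1 at 4.43 lies apart from the next values, 1.81 for C2 and 1.67 for ITGAX, and CD46, whose sign turned on removal of trends with GC content and length, lies at -0.18.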

How the data were processed

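The authors deposited raw read counts per Ensembl gene for each of 6 libraries, with no normalization, and a table of log2 fold changes. The submitters' processing notes list HISAT2 2.1.0 and HTSeq 0.11.1, beside Trimmomatic 038, bcl2fastq and DESeq2 1.22.2, with the build hg38. The annotation release and strand setting are not given in the sources used here. Tally lines of unassigned reads, 19.1% to 22.0% of each library's total, were left out. Positions and exonic lengths come from GENCODE 29, which holds 58275 of the 58395 gene identifiers.

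The counts went into edgeR 4.0.16 under R 4.3.3 (quasi-likelihood F test, filter by group, TMM, treatment as the only term, Benjamini-Hochberg adjustment over 16542 genes), and the test was tried on simulated data. Standard errors are the coefficient divided by the square root of F. The 9 genes and the lists were chosen with earlier results of these data known. Of each other list, up to 4 genes with the largest absolute change and an average log2 CPM of at least 0 are named, with members that moved against their list. Others, among them C1R, C8G, CFB and the genes with few or no reads, were named after their values were seen. Alternatives were other scalings and filters, a replicate block, DESeq2 1.42.0, a stricter threshold, each library left out, and removal of GC and length trends with mgcv. None of the libraries had identical counts, which does not show that they came from separate cultures. Floors cover counting error in the untreated group only, and counts cover counting error only. The NF-kB motif was narrowed after a first search, in which a looser form had matched the CD55 window. Not every gene on the lists is reported here.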

Additional observations from a re-analysis of the deposited data

How the results depend on the processing

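The 6 rises among the complement genes were called under every alternative run. The number that fell was 2, and it became 1 under total counts alone, 1 at an adjusted p under 0.01 and 0 after removal of trends with GC content and length. Under that removal CD46 turned from -0.181 to 0.108 on the log2 scale; the cause was not tested. The replicate number as a block left 6 raised and 2 lowered, and among the other complement genes 7 and 3. The block changed no call among these genes. Deviations from the group mean correlated at -0.181, 0.163 and 0.000 for same-numbered libraries, and from -0.253 to 0.238 for differently numbered ones. Deviations within a group constrain each other, so these values cannot show whether replicate numbers pair the libraries. Leaving out each library gave 6 raised and 2 lowered among the 9, and 7 to 9 raised and 3 lowered among the others. Over all genes, 5211 to 5493 were raised and 5260 to 5484 lowered when a library was left out; under total counts alone 6582 were raised and 4605 lowered, against 5638 and 5570. C5AR1 ranged from 4.113 to 4.648 on the log2 scale. On raw counts, not scaled to length, the log2 change of the CD46 share was -0.094 in place of -0.137. Leaving out libraries, the log2 change of the CD59 share ran from -0.294 to -0.127 and that of the CD55 to CD59 ratio from 0.886 to 1.061; without the second monensin library the CD59 change was -0.127, against -0.215 with all. C1RL, called with all libraries, was not called when library 2 or 3 of either group was left out. C3AR1 was removed by the stricter filter. Low read numbers limit C3AR1, C1R and the untreated level of C5AR1.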

Other observations

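Of 18 receptors for other chemoattractants and related ligands, 11 were tested, of which 2 rose and 5 fell. Over all tested genes 34.1% rose and 33.7% fell. The median log2 fold change was -0.44, beside 0.019 over all tested genes. CCR2, the monocyte receptor for CCL2, fell by 0.86 on the log2 scale (SE 0.044, edgeR adjusted p = 1.51e-10), and P2RY2, a nucleotide receptor, by 0.77 (SE 0.058, edgeR adjusted p = 1.16e-08). PTAFR, the receptor for platelet activating factor, rose by 0.76 (SE 0.249, edgeR adjusted p = 0.0132) on 17 to 50 reads per library. Its CPM ranges just overlapped, at 1.243 for the highest untreated and 1.242 for the lowest monensin library. LTB4R, a leukotriene B4 receptor, rose by 0.17 (edgeR adjusted p = 0.0433), although its CPM ranges overlapped. LTB4R2 fell by 0.73 (SE 0.140, edgeR adjusted p = 0.000271), and the LTB4R and LTB4R2 genes overlap by 604 bases, so their counts are uncertain. NOP9 on the same strand also overlaps LTB4R2 over 3391 bases, and CIDEB on the opposite strand over 5697 bases. FPR2, a formyl peptide receptor, had a log2 fold change of -0.64 (SE 0.284, edgeR adjusted p = 0.0604).

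Of 16 genes for signalling behind the anaphylatoxin receptors, 15 were tested, and 5 rose and 5 fell, close to the shares of 34.1% and 33.7% over all tested genes, with a median of 0.08. PIK3CG, the catalytic subunit of phosphoinositide 3-kinase gamma, fell by 1.12 (SE 0.071, edgeR adjusted p = 1.56e-09), and PLCB2, a phospholipase C, rose by 0.52 (SE 0.062, edgeR adjusted p = 2.37e-06). Of 27 tested genes of GPI anchor assembly, which CD55 and CD59 both need, 7 rose and 12 fell, with a median of -0.13, where 34.1% and 33.7% of all tested genes did so. PIGW, an inositol acyltransferase, fell by 1.35 (SE 0.063, edgeR adjusted p = 4.97e-11), and PGAP3, which remodels the anchor lipid, rose by 0.53 (SE 0.073, edgeR adjusted p = 9.84e-06). On the opposite strand, MYO19 overlaps PIGW over 4291 bases and ERBB2 overlaps PGAP3 over 8884 bases. Their counts are uncertain because the strand setting is not known.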
